A study of Oryctolagus cuniculus with 16 samples.

Results

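The known rabbit miRNAs that were well detected in Perthes disease are described here. A miRNA was included when its name was a rabbit miRNA name and it had at least 10 reads in each of the 3 Perthes small RNA libraries, and when it was neither a let-7 miRNA nor an arm of one of 10 other hairpins (miR-223, miR-144, miR-451, miR-486, miR-150, miR-126, miR-140, miR-133a, miR-206 and miR-214). Of the 866 miRNAs in the table, 401 were known and 465 were predicted ones without a known name. The minimum was reached by 269 known miRNAs, of which 25 were left out by name, so that 244 members remained. The other 132 known miRNAs missed the minimum in at least 1 library. The members were thus chosen by the read counts of these 3 libraries, and the levels below are a description without a test.

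The Perthes group was a surgical model of ischaemia in rabbits operated on at 8 weeks of age, with a permanent tie around the femoral neck and a cut ligamentum teres, the routes of the vessels to the femoral head. The controls were labelled as wild type, and the tissue of both groups was the femoral head. No transgene or drug is named for either group. Small RNA values came from Perthes rabbits 1, 2 and 3, with no control library, and total RNA values came from 5 Perthes and 3 control rabbits. Each label names a separate rabbit, and the same rabbit numbers recur in both assays.

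A miRNA is made from a hairpin in a longer transcript. DROSHA with its partner DGCR8 crops the hairpin in the nucleus, XPO5 exports it, DICER1 removes the loop, and 1 of the 2 arms, named 5p and 3p after the end of the hairpin it comes from, is usually kept in an Argonaute protein while the other is degraded. The seed, a short stretch near the 5′ end of the mature miRNA, pairs with target mRNAs, so that miRNAs with a shared seed form a family. In bone and cartilage, miRNAs such as miR-26a, miR-34a, miR-204 and miR-211 are known to act on genes of osteoblasts and chondrocytes.

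The libraries were of nearly equal depth, with totals of 21584136, 21624154 and 21983045 reads in rabbits 1, 2 and 3, as implied by the deposited RPM (reads per 1000000 reads of the library). Listed miRNAs took 11.7%, 10.6% and 11.2% of these reads. The members held 70.4%, 69.1% and 69.0% of the reads on known miRNAs, and the miRNAs left out by name held 29.6%, 30.9% and 31.0%. At this depth 10 reads correspond to 0.463, 0.462 and 0.455 RPM. RPM is not divided by length, but mature miRNAs are all of similar length. In the total RNA, the bone and cartilage marker lists were all listed and high (bone genes summed to 47338 to 146805 CPM in Perthes and 74015 to 93324 in control rabbits), except for the cartilage gene MATN1, which stayed at or under 0.214 CPM. Nearly all of the bone sum was COL1A1, at 44666 to 143897 CPM in Perthes and 72816 to 90894 CPM in control rabbits. The skeletal muscle genes listed (3 of 4) summed to no more than 9.71 CPM.

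The levels were very unequal. The member with the highest mean, miR-26a-5p, stood 8425-fold above the lowest, the median member was at 15.9 RPM, and 25 members at or above 1000 RPM held 76.4% of the summed RPM. Another 37 members lay between 100 and 1000 RPM with 19.4%, 76 between 10 and 100 RPM with 3.69%, 94 between 1 and 10 RPM with 0.531%, and 12 below 1 RPM with 0.0118%. At the top, by contrast, the levels were flat, since the highest member was only 1.74-fold above the member of rank 10 and 4.78-fold above that of rank 25. The 10 highest members of each rabbit took 45.9%, 52.1% and 45.1% of its member reads, and 12, 10 and 12 members were enough to reach 50% of them.

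**Figure D1:**
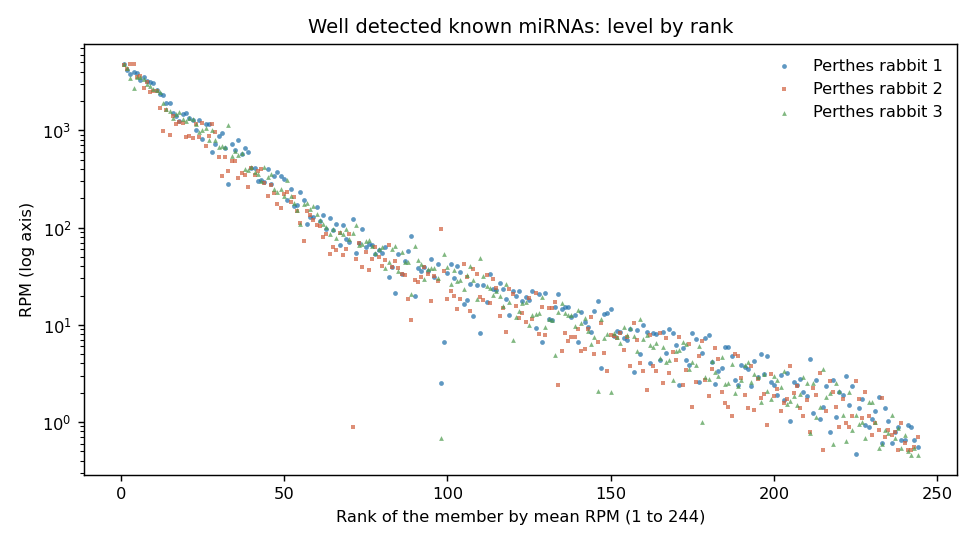
RPM of each of the 244 members (log axis) against its rank by mean RPM, with 1 point for each of the 3 Perthes rabbits. The levels span from 4871 RPM to below 1 RPM, and the points that lie far below their neighbours near ranks 71 and 98 are miR-128b-3p and miR-128a-3p.

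The highest member, miR-26a-5p, which is known to act in the differentiation of bone-forming cells, was at 4817, 4678 and 4871 RPM in rabbits 1, 2 and 3. Next came miR-99a-5p, a miRNA that targets mTOR, at 4160, 4292 and 4379 RPM. These levels did not overlap, and both varied little between rabbits (4788 ± 99.9 and 4277 ± 110 RPM, mean ± SD, n = 3).

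miR-24-3p, a miRNA encoded beside miR-27 and miR-23, was at 3800, 4765 and 3445 RPM. miR-211-5p, which lies in the melastatin gene TRPM1 and shares its seed with miR-204-5p, was at 4015, 4775 and 2761 RPM. Both were highest in rabbit 2, where they stood above miR-26a-5p, so that the order of the first 4 members differed between rabbits. miR-34a-5p, a target of the tumour suppressor p53, was at 3893, 3573 and 3506 RPM, and miR-92a-3p, of the miR-17-92 cluster, at 3274, 3588 and 3573 RPM. The ranges of ranks 3 to 6 overlapped one another.

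miR-143-3p, which is abundant in smooth muscle and fibroblasts, was at 3506, 2736 and 3382 RPM. miR-22-3p was at 3220, 3181 and 2970 RPM, and miR-196a-5p, encoded in the HOX gene clusters, at 3180, 2506 and 2860 RPM. miR-27b-3p was at 3045, 2544 and 2648 RPM and closed the first 10. Among ranks 7 to 10 every range again overlapped that of the next rank.

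In ranks 11 to 25, 4 members had a CV (SD divided by the mean) under 10%. miR-222-3p, encoded beside miR-221, was at 2608, 2528 and 2620 RPM. miR-100-5p was at 1900, 1641 and 1656 RPM, miR-7a-5p, which is encoded within the gene HNRNPK, at 1512, 1394 and 1346 RPM, and miR-423-3p at 1007, 1153 and 1166 RPM. Others were low in rabbit 2. miR-411-5p and miR-127-3p, both of the imprinted region described below, were at 2289, 985 and 1935 RPM and at 1908, 900 and 1573 RPM. miR-146a-5p, which is induced by NF-kappaB and dampens inflammatory signalling, was at 1526, 856 and 1247 RPM, miR-191-5p at 2345, 1719 and 2499 RPM, miR-204-5p at 1355, 873 and 1330 RPM, miR-26b-5p at 1283, 844 and 1299 RPM, and miR-378-3p, encoded in PPARGC1B, at 1268, 850 and 962 RPM. In each of these 7, rabbit 2 was the lowest. The remaining 4 were miR-872-3p (1412, 1161 and 1470 RPM), miR-151-5p of the focal adhesion kinase gene PTK2 (1248, 1221 and 1549 RPM), miR-199a-5p, a miRNA of mesenchymal cells (1479, 1203 and 1301 RPM), and miR-139-5p of PDE2A (806, 1188 and 1010 RPM). The first 3 of these were also lowest in rabbit 2, and miR-139-5p was highest there. Of the 25 highest members, 15 were 5p and 10 were 3p arms, and 20 were among the 25 highest of every rabbit.

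**Figure D2:**
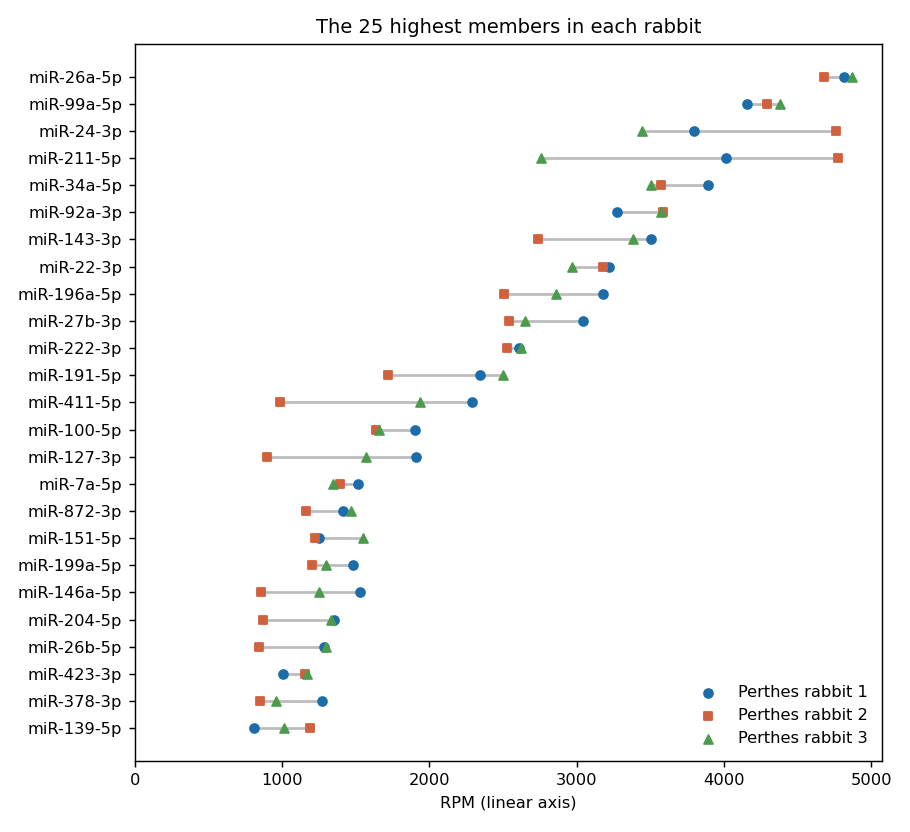
RPM (linear axis from 0) of the 25 members with the highest mean, with 1 point per Perthes rabbit and a line over their range. miR-26a-5p, miR-99a-5p and miR-222-3p have narrow ranges, while miR-211-5p is highest in rabbit 2, and miR-411-5p and miR-127-3p are lowest there.

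Just inside the minimum were miR-513-5p with 12, 15 and 10 reads, miR-323a-5p with 19, 11 and 10 reads, and miR-489-3p with 10, 57 and 26 reads. Just outside were miR-181c-3p with 48, 18 and 9 reads, miR-29b-5p with 19, 9 and 29 reads, and miR-500-5p with 28, 9 and 17 reads. A single read separated both sides of the minimum. Of the 3 miRNAs that the study singles out by name, miR-574-5p was a well detected member with 7401, 4919 and 5433 reads (343, 227 and 247 RPM). miR-324-3p was a member near the lower end with 59, 44 and 13 reads, and miR-12093-3p was not a member, with 5 reads in rabbit 1 and 0 in rabbits 2 and 3. A count of 0 allows up to 3 reads at this depth, by counting error alone.

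Some members named after their values were seen are known for other tissues. miR-1-3p, a miRNA of striated muscle, was highest in rabbit 3 and lowest in rabbit 2, with 1468, 783 and 1648 reads, and miR-499-5p, encoded in the myosin gene MYH7B, was at 9.08, 3.75 and 9.19 RPM. The liver miRNA miR-122-5p was at 1.67, 1.57 and 3.32 RPM, and the epithelial miRNAs miR-200c-3p and miR-205-5p were at 7.27, 2.68 and 2.91 RPM and at 3.89, 6.38 and 3.50 RPM. Among miRNAs of blood cells, miR-142-5p was at 16.2, 42.5 and 23.5 RPM and miR-155-5p, which is induced in activated leukocytes, at 311, 403 and 299 RPM. These 2 were highest in rabbit 2, as were the erythroid marker genes of the total RNA, which summed to 23.2, 879 and 162 CPM in the same-numbered rabbits, and the granulocyte genes, at 9.25, 689 and 288 CPM. The part of these cells in the miRNA levels was not tested.

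Families were assigned by published miRNA names. Of the 28 families listed, 21 had at least 2 members, and their 60 members held 50.2% of the summed member RPM. The 8 highest families alone held 43.4%. This order covers members alone, so the let-7 miRNAs and the other miRNAs left out by name have no part in it. In the first place stood the family of miR-99a-5p and miR-100-5p, whose summed level was 6060, 5932 and 6035 RPM (CV 1.12%). That of miR-26a-5p and miR-26b-5p followed at 6099, 5521 and 6171 RPM. These families were close, and the range of the second contained that of the first.

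The family of miR-211-5p and miR-204-5p summed to 5370, 5648 and 4091 RPM. miR-211-5p was the larger of its 2 members by 2.96-, 5.47- and 2.08-fold in rabbits 1, 2 and 3, since miR-204-5p was lowest where miR-211-5p was highest. Another family held miR-196a-5p, miR-196a-2-5p and miR-196b-5p and summed to 4376, 3347 and 4055 RPM. In the family of miR-34a-5p and miR-449a-5p, at 4126, 3684 and 3615 RPM, miR-34a-5p made up 96.0% of the sum and miR-449a-5p, a miRNA of ciliated cells, the rest with 233, 112 and 109 RPM.

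The family led by miR-92a-3p summed to 3551, 3809 and 3812 RPM, of which that member gave 93.4%. Its other members were miR-25-3p (251, 183 and 213 RPM), miR-32-5p (23.4, 29.9 and 20.5 RPM) and miR-363-3p (2.41, 7.44 and 5.46 RPM). miR-222-3p and miR-221-3p summed to 2743, 2608 and 2728 RPM, with 96.0% from miR-222-3p. The miR-146 family, the most variable of the 8 with a CV of 29.3%, summed to 2189, 1205 and 1648 RPM, and both miR-146a-5p and miR-146b-5p (662, 349 and 401 RPM) were lowest in rabbit 2. In every one of these 8 families, then, 1 member held at least 71.2% of the sum. The families with the most members were lower, namely that of miR-15 and miR-16 with 7 members (1145, 923 and 1228 RPM) and that of miR-30 with 5 members (1267, 759 and 1137 RPM).

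The balance of the arms was described for 124 hairpins with at least 1 member for which both arms were listed and had at least 10 reads together in every rabbit. A hairpin here is a hairpin name, and some names, such as miR-24, miR-92a and miR-125b, pool the reads of 2 hairpin genes. Arms listed under a separate name were not added to the share. For example, miR-125b-2-3p had 672, 688 and 846 reads, more than the 486, 447 and 155 of miR-125b-3p. The 5p arm had more reads in every rabbit in 66 hairpins and the 3p arm in 50, while 8 hairpins changed sides between rabbits. The preference was strong, since the mean share of the 5p arm was over 90% or under 10% in 93 hairpins and over 99% or under 1% in 42. By reads, 62.2%, 60.7% and 60.9% of the member reads fell on 5p arms in rabbits 1, 2 and 3. Both arms were members for 58 of the 186 hairpin names, only the 5p arm for 72 and only the 3p arm for 56.

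The 5 most one-sided hairpins at each end, among those with at least 100 reads per rabbit, came from members of ranks 1 to 130. miR-211 had 86654, 103259 and 60706 reads on its 5p arm against 0, 8 and 0 on its 3p arm. The 5p share was also above 99.9% in every rabbit for miR-196a-2, miR-204, miR-99a and miR-26a. At the other end, miR-222 had 56299, 54673 and 57604 reads on its 3p arm against 0, 0 and 3 on its 5p arm. miR-143, miR-22, miR-328 and miR-376a likewise kept mean 5p shares of 0.00847%, 0.0205%, 0.0254% and 0.0734%.

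Balanced hairpins were few. A mean 5p share from 25% to 75% was found in 18 hairpins, and in these the share varied more between rabbits (median SD 9.63 percentage points) than over all 124 (1.39 points). Shares near 50% have the largest counting error, and several of these hairpins had few reads. The 5 hairpins nearest 50% with at least 100 reads each were miR-574, miR-425, miR-30a, miR-335 and miR-340. The miR-574 hairpin, which yields the miR-574-5p named by the study, had a 5p share of 64.1%, 49.5% and 44.4% over at least 9938 reads, and miR-574-5p was highest in rabbit 1 whereas miR-574-3p was at 192, 232 and 309 RPM. The miR-425 hairpin stood at 36.0%, 67.0% and 57.9% and miR-340 at 33.4%, 51.1% and 45.9%, and both changed sides. miR-30a stayed on the 5p side with 52.1%, 53.8% and 59.1%, and miR-335 on the 3p side with 49.4%, 38.8% and 43.3%.

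**Figure D3:**
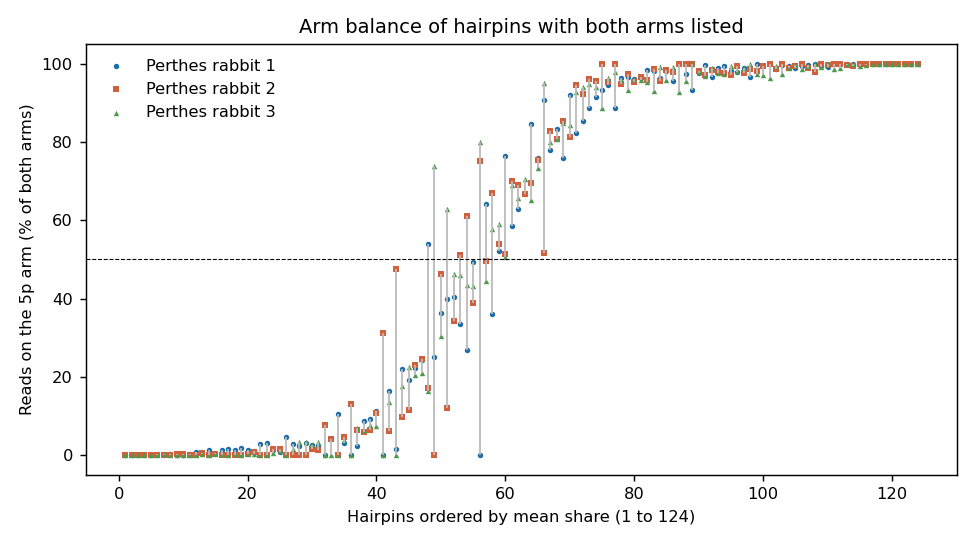
Share of reads on the 5p arm, in % of the reads on both arms, for the 124 hairpins ordered by their mean share, with 1 point per Perthes rabbit, a line over the range and a dashed line at 50%. Most hairpins lie near 0% or 100%, and the 8 that cross the dashed line are in the middle of the order.

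Between rabbits, the members kept their order (Spearman's rho of 0.927, 0.962 and 0.940 for rabbits 1 and 2, 1 and 3, and 2 and 3, across 244 miRNAs that are not independent and share the same libraries) but differed far more than counting allows. The median CV over the 3 rabbits was 30.7%, against 5.39% from counting alone, and the SD was above the counting error in 232 members. In 140 members the highest and lowest rabbit lay within 2-fold, and in 21 they were more than 4-fold apart. Rabbit 2 was the lowest for 135 members, rabbit 3 for 60 and rabbit 1 for 49. Of all 269 known miRNAs that reached the minimum, 54.3% were lowest in rabbit 2. These 269 include the 244 members, so the 2 shares had to lie close, and nothing is read from their likeness.

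Among the 149 members with at least 100 reads in every rabbit, the least variable were miR-181a-5p (408, 411 and 422 RPM, CV 1.80%), miR-222-3p (1.94%), miR-26a-5p (2.09%), miR-99a-5p (2.58%) and miR-145-5p (68.6, 70.2 and 66.5 RPM, 2.71%). For miR-145-5p the CV was close to the 2.59% of counting alone. The most variable was miR-31-5p, at 82.1, 11.2 and 20.7 RPM (CV 101%). miR-148a-3p and miR-152-3p, 2 members of 1 seed family, were at 281, 383 and 1136 RPM and at 8.25, 19.1 and 48.4 RPM. Both were highest in rabbit 3 and lowest in rabbit 1, and their family with miR-148b-3p summed to 290, 406 and 1186 RPM. miR-1343-3p (6.58, 36.0 and 52.9 RPM) and miR-195-5p (19.6, 28.9 and 65.0 RPM) were in the same order of rabbits.

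A pair of near-identical miRNAs, found after the values were seen, stood apart. miR-128a-3p was at 2.50, 96.6 and 0.682 RPM and miR-128b-3p at 122, 0.879 and 88.3 RPM, so that rabbit 2 had one and rabbits 1 and 3 the other. Their sum was 124, 97.5 and 89.0 RPM, with a CV of 17.7% in place of 165% and 88.7%. How reads that match both were assigned is not given in the sources used here, and the level of each is uncertain. The split of such reads also bears on miR-196a-5p and miR-196a-2-5p, whose sum was 3802, 2985 and 3476 RPM.

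Neighbourhoods were taken from the RefSeq annotation of the rabbit assembly mOryCun1.1, as runs of miRNA genes within 10 kb of the next. Counting only members whose hairpin genes all lay in the same run, 95 members came from 23 neighbourhoods with members from different hairpins. The largest ran from MIR379 to MIR656 on chromosome 20 and held 24 members of 19 hairpins. On the same chromosome, MIR337 to MIR136 held 6 members, among them miR-127-3p, miR-337-3p and miR-432-5p. In mammals these hairpins belong to the imprinted DLK1-DIO3 region, whose miRNAs are expressed from the maternal chromosome and are typical of embryonic and mesenchymal tissue.

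Together the 30 members of this region summed to 6363, 2811 and 5218 RPM, which was 7.91%, 4.00% and 6.85% of the member RPM. miR-379-5p was at 935, 340 and 692 RPM, miR-154-3p at 398, 212 and 334 RPM, and miR-337-3p at 193, 72.9 and 176 RPM. Rabbit 2 was the lowest for 25 of the 30 and rabbit 1 the highest for 23. The median log2 ratio of rabbit 2 to the mean of rabbits 1 and 3 was -0.97 (range -2.83 to 0.10), while the other 214 members had a median of -0.26 and were lowest in rabbit 2 in 110 cases (51.4%). The exceptions were miR-433-3p, lowest in rabbit 1, and miR-376c-3p, miR-337-5p, miR-496-3p and miR-323a-5p, lowest in rabbit 3, all at or under 2.73 RPM. Scaling by TMM moved both medians upward, to -0.69 for the region and 0.0098 for the other members. This region was chosen after its values were seen, hairpins of 1 transcript are not independent, and 1 rabbit of 3 carries the difference, so no test was made. In the total RNA of the same-numbered rabbits, bone genes summed to 47338, 146805 and 129449 CPM, nearly all of it COL1A1 (44666, 143897 and 126120 CPM). Of the other bone genes, IBSP was lowest in rabbit 2 (861, 593 and 889 CPM), while BGLAP, SPP1 and ALPL were lowest in rabbit 1. The marrow lists were highest in rabbit 2 (above). The part of these genes in the difference was not tested.

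**Figure D4:**
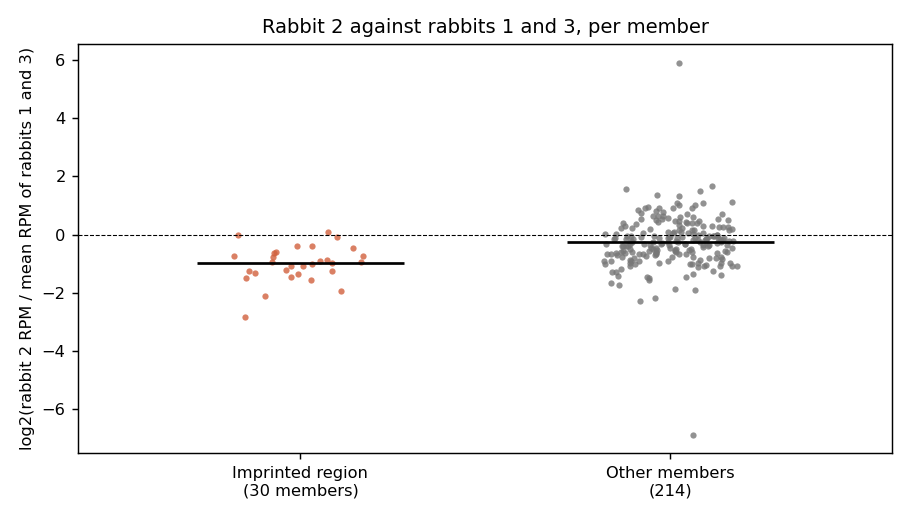
log2 ratio of the RPM in rabbit 2 to the mean RPM of rabbits 1 and 3, with 1 point per member, for the 30 members of the imprinted region and the 214 other members. Horizontal bars are medians (-0.97 and -0.26), the dashed line marks equal levels, horizontal scatter has no meaning, and the most extreme grey points are miR-128a-3p and miR-128b-3p.

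Another large neighbourhood was low in rabbit 2 as well. MIR450B to MIR424 on chromosome X held 6 members that include miR-542-5p, miR-450a-5p and miR-424-5p. These members summed to 168, 96.2 and 161 RPM, and 5 of 6 were lowest in rabbit 2. Their median log2 ratio of rabbit 2 to the mean of rabbits 1 and 3 was -1.14, beside -0.97 for the imprinted region. A low rabbit 2 was thus not particular to that region. MIR532 to MIR502A, also on chromosome X, had 7 members that summed to 425, 300.0 and 293 RPM, with 3 of 7 lowest in rabbit 2. Of 4 neighbourhoods tied with 4 members each, MIR24-1 to MIR23B on chromosome 1 summed to 3792, 3059 and 3221 RPM over the arms of miR-27b and miR-23b. miR-24-3p, which alone reached 3800, 4765 and 3445 RPM, is not in that sum because its hairpin genes do not all lie in that neighbourhood. The other 3 were MIR191 to MIR425 (2478, 1839 and 2631 RPM), MIR30B to MIR30D (1089, 603 and 920 RPM) and MIR25 to MIR106B (420, 390 and 396 RPM).

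Neighbours often differed widely in level. miR-143-3p exceeded miR-145-5p by 51.1-, 39.0- and 50.9-fold in rabbits 1, 2 and 3, miR-222-3p exceeded miR-221-3p by 19.4-, 31.8- and 24.3-fold, and miR-92a-3p exceeded miR-20a-5p of the same cluster by 426-, 467- and 432-fold. miR-92a has a second hairpin outside this cluster, whose reads cannot be told apart. In contrast, miR-27b-3p exceeded miR-23b-3p by only 4.22-, 5.24- and 4.83-fold. These pairs were chosen after their values were seen, and the ratios are of reads.

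The total RNA libraries give a readout that the selection of members did not use, namely the genes that span the hairpins. In the RefSeq annotation, 188 members lay within the span of another gene, and 109 such genes were found. The strand is not given there, so a gene on the opposite strand is counted as well. Of these, 91 were in the table and 82 passed the filter on low counts. Between Perthes and control rabbits 10 of the 82 (12.2%) differed at an adjusted p below 0.05 (edgeR quasi-likelihood test with Benjamini-Hochberg adjustment over 15305 genes), 4 higher and 6 lower in Perthes, against 15.1% of all genes tested. The median log2 fold change was 0.03 for these genes and 0.02 for all genes. The count was 12 or less in every other edgeR fit. It fell to 5 without Perthes rabbit 3, 4 without Perthes rabbit 5, 2 without control rabbit 1 and 0 without control rabbit 2. In that last fit 19 had an unadjusted p below 0.05. In the main fit 26 of the 82 did, as did 4883 of all 15305 genes. No share over all genes stands beside the counts of the other edgeR fits, so nothing is read from their fall. DESeq2 called 16 (19.5%), against 23.8% of all genes with an adjusted p. By either tool the share lay near that of all genes, and nothing is read from the difference. In bulk tissue, fewer cells of a type and less RNA per cell cannot be told apart.

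Among the genes higher in Perthes, LOC108177747, which spans the hairpin of miR-34a, was at 6.92, 5.35, 5.43, 4.51 and 6.19 CPM in Perthes rabbits 1 to 5 and at 0.822, 0.776 and 1.53 CPM in the controls. All Perthes rabbits were above all controls (log2 fold change 2.44 ± 0.31 SE, edgeR adjusted p = 0.0118). MEST, an imprinted gene of mesodermal tissue that holds miR-335, was at 49.3, 24.8, 52.2, 16.3 and 38.4 CPM against 6.47, 6.10 and 7.82 CPM, again without overlap (2.41 ± 0.40, edgeR adjusted p = 0.0124). Both miR-335-3p (13.7, 5.32 and 10.6 RPM) and MEST were lowest in rabbit 2 among Perthes rabbits 1 to 3, as were 135 of the 244 members. Their order was not the same, since MEST was highest in rabbit 3 and miR-335-3p in rabbit 1. FAM114A1, which holds miR-574, was at 55.3, 61.7, 72.5, 77.8 and 69.9 CPM against 33.5, 42.1 and 44.1 CPM (0.76 ± 0.17, edgeR adjusted p = 0.0218). The osteoclast genes (2 of 2 listed) were also higher in Perthes in sum, at 1450 to 4194 CPM against 696 to 1208 CPM. CTSK, the collagen-degrading cathepsin K, passed the test (1.83 ± 0.44, edgeR adjusted p = 0.0272) and ACP5 did not (0.36, edgeR adjusted p = 0.592). Their part in the higher values was not tested.

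TRPM1, the melastatin gene around miR-211, was at 24.4, 30.4, 8.33, 0.728 and 8.71 CPM in the Perthes rabbits and at 0.929, 1.69 and 0.898 CPM in the controls. Perthes rabbit 4 lay below every control, so the groups overlapped, and the other 4 Perthes rabbits were above all controls (3.63 ± 1.02, edgeR adjusted p = 0.0438). The adjusted p rose above 0.05 when any library other than that of Perthes rabbit 4 was left out, up to 0.148 without control rabbit 1, and it was 0.00908 without Perthes rabbit 4. In Perthes rabbits 1 to 3, miR-211-5p (4015, 4775 and 2761 RPM) stood in the same order as TRPM1. Across the 82 genes, the leading member and the gene were in the same order of these 3 rabbits in 22, and in 3 of the 10 called genes (TRPM1, ELMO3 and SKA2).

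Perthes and control values did not overlap in 15 of the 82 genes (18.3%), against 25.2% of all genes tested. Among the 6 genes called lower this held for 5, and it held for 97.1% of all genes called lower, so it adds nothing to the call. MCM7, a subunit of the replicative helicase that holds miR-25, miR-93 and miR-106b, was at 32.4, 101, 53.9, 63.7 and 47.7 CPM in Perthes against 246, 167 and 151 CPM in controls, without overlap (-1.65 ± 0.34, edgeR adjusted p = 0.0166). SMC4, a condensin subunit that holds miR-15b and miR-16b, was at 17.8 to 32.6 CPM against 46.2 to 68.3 CPM (-1.25 ± 0.21, edgeR adjusted p = 0.0133). SKA2, a kinetochore gene that holds miR-301a, was at 2.04 to 4.33 CPM against 4.64 to 9.17 CPM (-1.28 ± 0.33, edgeR adjusted p = 0.0332). These 3 genes lay lower in every Perthes rabbit than in any control. The same was true of TMEM164, around miR-652 (15.6 to 26.3 against 38.0 to 98.1 CPM, adjusted p = 0.0175 by edgeR), and of ELMO3, an engulfment gene around miR-328 (0.979 to 5.35 against 7.75 to 13.2 CPM, adjusted p = 0.0235 by edgeR). TANGO2, around miR-185, overlapped between the groups through Perthes rabbit 2 at 20.8 CPM (4.05 to 20.8 against 19.8 to 45.2 CPM, adjusted p = 0.0483 by edgeR). The erythroid and granulocyte lists were also lower in Perthes than in control rabbits. B cell genes (2 of 3 listed) overlapped between the groups, at 1.59 to 12.5 CPM against 10.9 to 18.7 CPM. Erythroid genes (3 of 3 listed) summed to 23.2 to 879 CPM in Perthes and 1930 to 2274 CPM in control rabbits, and granulocyte genes (3 of 3) to 9.25 to 695 and 2436 to 9082 CPM. Their part in the lower values was not tested.

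**Figure D5:**
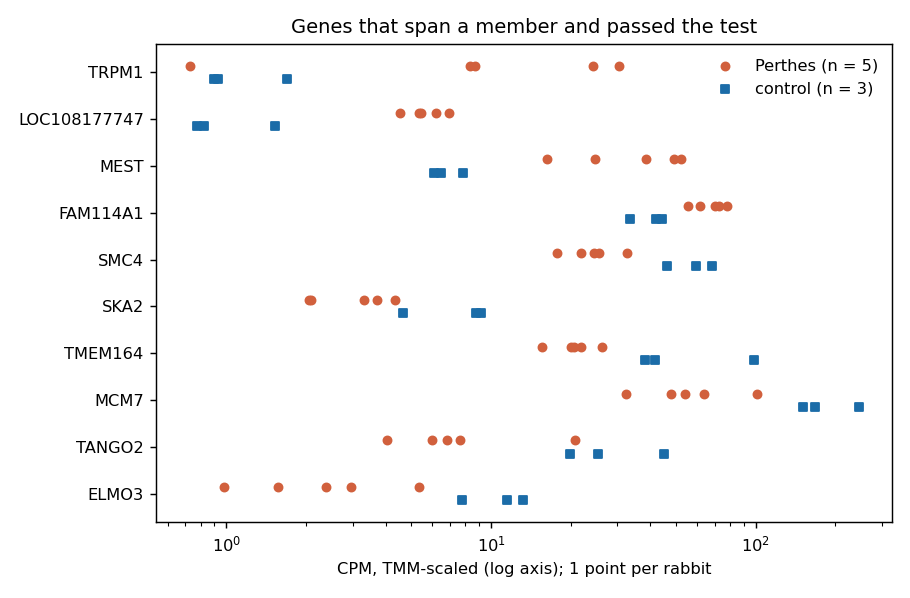
CPM (log axis, TMM-scaled) of the 10 genes that span a member and passed the test, with 1 point per rabbit, circles for the 5 Perthes and squares for the 3 control rabbits, ordered by log2 fold change from ELMO3 (lowest) to TRPM1 (highest). The groups overlap only for TRPM1 and TANGO2.

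For most of the highest members, the gene around the hairpin did not pass the test. CTDSP2, a phosphatase gene around the highest member miR-26a-5p, was at 266 to 472 CPM in Perthes and 297 to 356 CPM in control rabbits (log2 fold change 0.14, edgeR adjusted p = 0.681), and HNRNPK around miR-7a was at 259 to 355 and 287 to 315 CPM (0.02, edgeR adjusted p = 0.944). AOPEP, around miR-24, miR-27b and miR-23b, was at 20.2 to 39.7 CPM in Perthes and 16.4 to 17.3 CPM in controls (0.76, edgeR adjusted p = 0.0506). The ranges of AOPEP did not overlap, although the test was just missed. TRPM3, around miR-204, was low throughout, at 0.442 to 1.22 CPM in Perthes and 0.929 to 1.90 CPM in controls (-0.98, edgeR adjusted p = 0.129). LOC103346390, an lncRNA around miR-379 and miR-411 of the imprinted region, was at 2.06, 1.12 and 1.87 CPM in Perthes rabbits 1 to 3, also lowest in rabbit 2, and did not pass the test between the groups (0.58, edgeR adjusted p = 0.379). The other tested genes around the 25 highest members were DNM2, DNM3 and LOC108177642 (miR-199a), CTDSP1 (miR-26b), PTK2 (miR-151), NSRP1 (miR-423), HOXB8 and HOXB9 (miR-196a), PPARGC1B (miR-378), LOC103350594 (miR-99a), IFT74 (miR-872), IL17B (miR-143) and PDE2A (miR-139), with edgeR adjusted p from 0.0627 to 0.859.

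Of 42 genes of miRNA processing and silencing, 38 were in the table and 37 were tested. In Perthes 4 of the 37 were lower and none higher (10.8%, against 15.1% of all genes). An unadjusted edgeR p below 0.05 was found in 10 of the 37 and in 4883 of all 15305 genes tested. The median log2 fold change was -0.21 (all genes 0.02). AGO2, the Argonaute that can cut its targets, was at 32.1, 43.8, 38.5, 43.1 and 40.0 CPM in Perthes and 79.8, 68.3 and 62.8 CPM in control rabbits (-0.83 ± 0.15 SE, edgeR adjusted p = 0.0137). TUT7, which adds uridines to miRNA precursors, was at 53.2, 59.5, 40.9, 56.7 and 49.1 CPM against 148, 103 and 84.0 CPM (-1.11 ± 0.21, edgeR adjusted p = 0.0139). TNRC6B, a partner of Argonaute in silencing, was at 148 to 185 CPM against 243 to 273 CPM (-0.67 ± 0.15, edgeR adjusted p = 0.0217), and DROSHA at 27.7 to 33.7 CPM against 38.1 to 45.6 CPM (-0.48 ± 0.14, edgeR adjusted p = 0.0455). Perthes and control values did not overlap in 13 of the 37 genes (35.1%), all of them lower in Perthes, against 25.2% of all genes in either direction. Of the 15305 genes tested, 2134 were lower without overlap, and the difference in share was not tested. These 4 called genes were among the 13. Of all genes called lower, 97.1% did not overlap either, so this adds nothing to the call. DGCR8 was at 21.4 to 35.2 CPM against 36.5 to 53.2 CPM and just missed the test (-0.66, edgeR adjusted p = 0.0531). XPO5 (-0.13, edgeR adjusted p = 0.519) and DICER1 (-0.24, edgeR adjusted p = 0.244) did not pass. The count of called genes was 2 without Perthes rabbit 3 or 5 and 0 without control rabbit 1 or 2, where 8 and 7 genes had an unadjusted p below 0.05. No share over all genes stands beside the counts of these fits, so nothing is read from their fall. DESeq2 called 7 (18.9%, against 23.8% of all genes). With both tools the share of called genes lay below that of all genes, and nothing is read from these counts. The lower erythroid and granulocyte sums of the Perthes rabbits stand beside these values as well, and their part was not tested.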

How the data were processed

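Femoral head RNA was sequenced as total RNA (5 Perthes and 3 control rabbits) and as small RNA, of which 3 Perthes libraries (rabbits 1 to 3) were used and 5 were not analysed here. Groups follow the labels. The third control carries 3 in its code and 2 in its title and was taken as rabbit 3.

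The deposited small RNA values are raw read counts per miRNA, made by the authors with cutadapt (adapter removal) and miRDeep2. The deposited RPM are these counts per 1000000 reads of the whole library. Adapter ligation is known to favour some ends of small RNAs, so ratios between miRNAs are ratios of reads. The deposited total RNA values are expected counts per gene (26757087 to 29461482 per library), which the authors made with SOAPnuke, HISAT2 2.0.4, RSEM 1.1.17 and HTSeq 1.99.2. Whether counting used strand is not given in the sources used here. Another 8 columns repeat these values and were not used.

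Expected counts were rounded, scaled by TMM, filtered by filterByExpr and tested with the quasi-likelihood F-test (edgeR 4.0.16, R 4.3.3). Adjustment by Benjamini-Hochberg covered 15305 genes, with a threshold of 0.05. The procedure was tested on simulated data. CPM use the TMM-scaled library sizes. miRNA values were summarised with pandas 2.3.3 under Python 3.11.15. The counting CV is the Poisson error of the mean count. Of the 186 hairpin names, 185 matched the RefSeq table of mOryCun1.1, a different assembly from that of the files. It was used for names, for neighbours and to find the genes that span the hairpins.

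Named members are the 25 highest, the 5 least and 5 most variable with at least 100 reads in every rabbit, 3 on each side of the minimum, 5 hairpins for each end and the middle of the arm balance, the 8 highest families, the 5 neighbourhoods with the most members and the miRNAs that the study names. Named genes are those around the 25 highest members, those with an adjusted p below 0.05, and DROSHA, DGCR8, XPO5, DICER1 and AGO2. Seed families were planned from sequences and were taken from published names instead, after the values were seen. The members and lists were chosen with earlier results of these data known. Alternatives were other read minimums, other scales, DESeq2 1.42.0, other normalizations, no filter, the replicate number as a block and leaving out each library.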

Additional observations from a re-analysis of the deposited data

Results flagged for a closer look

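In 35 sets of 5 Perthes rabbits, 1 for each named gene, the highest or lowest rabbit was set against the rest by Dixon's criterion, which flags about 1 set in 20 by chance. TANGO2, around miR-185, was at 20.8 CPM in Perthes rabbit 2, with the next rabbit at 7.64 CPM. LOC108177642, an lncRNA around miR-199a, was at 41.1 CPM in Perthes rabbit 1, with the next at 13.7 CPM. PTK2, around miR-151, was at 78.6 CPM in Perthes rabbit 4, with the next at 61.3 CPM.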

How the results depend on the processing

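The number of members ranged from 217 to 275 over the other read minimums and with 1 library left out, and the shares of reads, the number of families (22 over all known miRNAs) and the order of the highest members moved little. Restricting the arm balance to hairpins with both arms among the members left 58 hairpins, 34 with more 5p and 20 with more 3p reads in every rabbit. The counts of called genes depended on the tool and on single libraries. Genes around the members numbered 10 by edgeR and 16 by DESeq2, and from 0 to 12 with 1 library left out. Genes of the miRNA pathway numbered 4 by edgeR and 7 by DESeq2, and from 0 to 5 with 1 library left out. With the replicate number as a replicate block, edgeR called 0 of the genes around members and 0 pathway genes, with 16 and 3 at an unadjusted p below 0.05. No share over all genes stands beside the counts of this fit or of the fits with 1 library left out, so nothing is read from them. Deviations from the group mean in Perthes and control rabbits of the same number had correlations of -0.317, 0.161 and -0.238 for numbers 1, 2 and 3. With only 3 control rabbits, these values cannot settle whether the numbers pair Perthes with control rabbits. Small RNA and total RNA of a Perthes rabbit were not compared in this way. Of the 35 named genes, 3 turned direction, none of which passed the test in any fit. The log2 fold change of IL17B (0.48) became -0.28 under the replicate block and spanned -0.29 to 1.20 over the fits that leave out 1 rabbit, with the lowest value in the fit lacking Perthes 4. That of PDE2A (-0.085) became 0.028 under the replicate block and spanned -0.23 to 0.039, above 0 when Perthes 1 or 4 was left out. That of HNRNPK (0.020) became -0.061 by library totals alone and spanned -0.038 to 0.074, below 0 when Perthes 1 or control 2 was left out. HOXB9 was removed by the low-count filter in 2 of the fits without 1 library and has no value there. Families by bases 2 to 7 of the seed and the features of the sequences were not run. With 3 rabbits and no control library in the small RNA values, no miRNA can be compared between conditions here.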
